A study of Mus musculus with 96 samples.

Results

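A set of 10 genes of the Slc4 and Slc26 families, which encode carriers that move bicarbonate and other anions across the cell membrane, were followed along the mouse nephron. The members were Slc4a1, Slc4a2, Slc4a4, Slc4a7, Slc4a8, Slc4a9, Slc4a11, Slc26a4, Slc26a6 and Slc26a7. They were taken by gene symbol, and each was found among the 54532 genes of the deposited table. The samples were glomeruli (GL) and 14 tubule segments microdissected from kidneys of male C57BL/6 mice, 6 to 8 weeks old, which were free of pathogens, ate a standard diet and received no named treatment. PTS1 is the first convoluted piece of the proximal tubule, PTS2 its straight part in the cortex and PTS3 its end in the outer medulla. DTL1 is the descending thin limb of short loops of Henle, DTL2 and DTL3 are the outer and inner medullary parts of that limb in long loops, and ATL is the thin limb that ascends. MTAL and CTAL are the thick ascending limb in medulla and cortex. DCT stands for distal convoluted tubule and CNT for connecting tubule. The collecting duct was sampled in cortex (CCD), in outer medulla (OMCD) and in inner medulla (IMCD). Levels are TPM, the authors' abundance per transcript length, which can be compared between genes. A mean ± SD is over mice (n = 5 in PTS2, CTAL and CCD, n = 4 in ATL and in OMCD, n = 3 elsewhere).

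The kidney recovers the bicarbonate that is filtered at the glomerulus and adds new bicarbonate to the blood when it secretes acid. In the proximal tubule, protons are secreted into the lumen and bicarbonate leaves the cell on the blood side through a sodium-coupled carrier. In the connecting tubule and collecting duct, type A intercalated cells secrete acid and return bicarbonate to the blood through a chloride-bicarbonate exchanger, while type B intercalated cells hold an exchanger on the luminal side and secrete bicarbonate into the urine. These cells are interspersed with principal cells, so a dissected segment is a mixture, and in such bulk samples fewer cells of a type and less RNA per cell cannot be told apart.

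TPM keep no record of read number, so depth is unknown and no counting error is given. Segment markers were highest where labelled, except that Slc8a1 (a sodium-calcium exchanger taken as a mark of CNT) was at 173 TPM in DCT and 53.9 TPM in CNT. Slc5a2 (the luminal glucose carrier) was at 2792 TPM in PTS1, Slc12a3 (the thiazide-sensitive cotransporter) was at 5782 TPM in DCT, and Aqp2 (the vasopressin-regulated water channel) was at 27393 TPM in IMCD. Libraries differed in how many unlikely genes they held. Of 1740 odorant and vomeronasal receptor genes, a median of 805 per sample stood at 1 TPM or more in DTL1, 609 in GL, 475 in DTL3, 326 in DTL2, 302 in ATL and 96 in OMCD. The median was at most 32 in each of the other groups. Among the 4 ATL samples the number spread from 17 to 659. The part of this difference in the results was not tested.

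All 10 genes passed the filter on low values (1 TPM in 3 mice) and all 10 differed among the 15 groups in limma's moderated F-test, with adjusted p-values from 3.52e-47 for Slc4a1 to 1.07e-09 for Slc26a6. Of all genes tested, 93.9% did so. The 10 genes divided the nephron between them. Slc4a4 made up 91.9 ± 1.58% of their summed TPM in PTS1 (n = 3), Slc4a11 95.9 ± 0.395% in DTL2 (n = 3), Slc26a4 63.3 ± 2.08% in CNT (n = 3) and Slc4a1 85.6 ± 0.539% in OMCD (n = 4). On means, Slc4a2 was the leading member in GL, PTS3, DTL1, MTAL and CTAL, although Slc4a4 was above it in PTS3 mouse 3 and Slc4a11 in DTL1 mouse 5 and CTAL mouse 5, with shares from 38.1 ± 3.81% in PTS3 to 58.3 ± 6.74% in MTAL (n = 3 each). In IMCD the largest shares belonged to Slc4a11 (63.5 ± 6.96%) and Slc4a7 (24.4 ± 7.86%, n = 3). The summed level ranged from 28.8 ± 11.3 TPM in PTS3 (n = 3) to 3900 ± 380 TPM in CNT (n = 3).

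**Figure D1:**
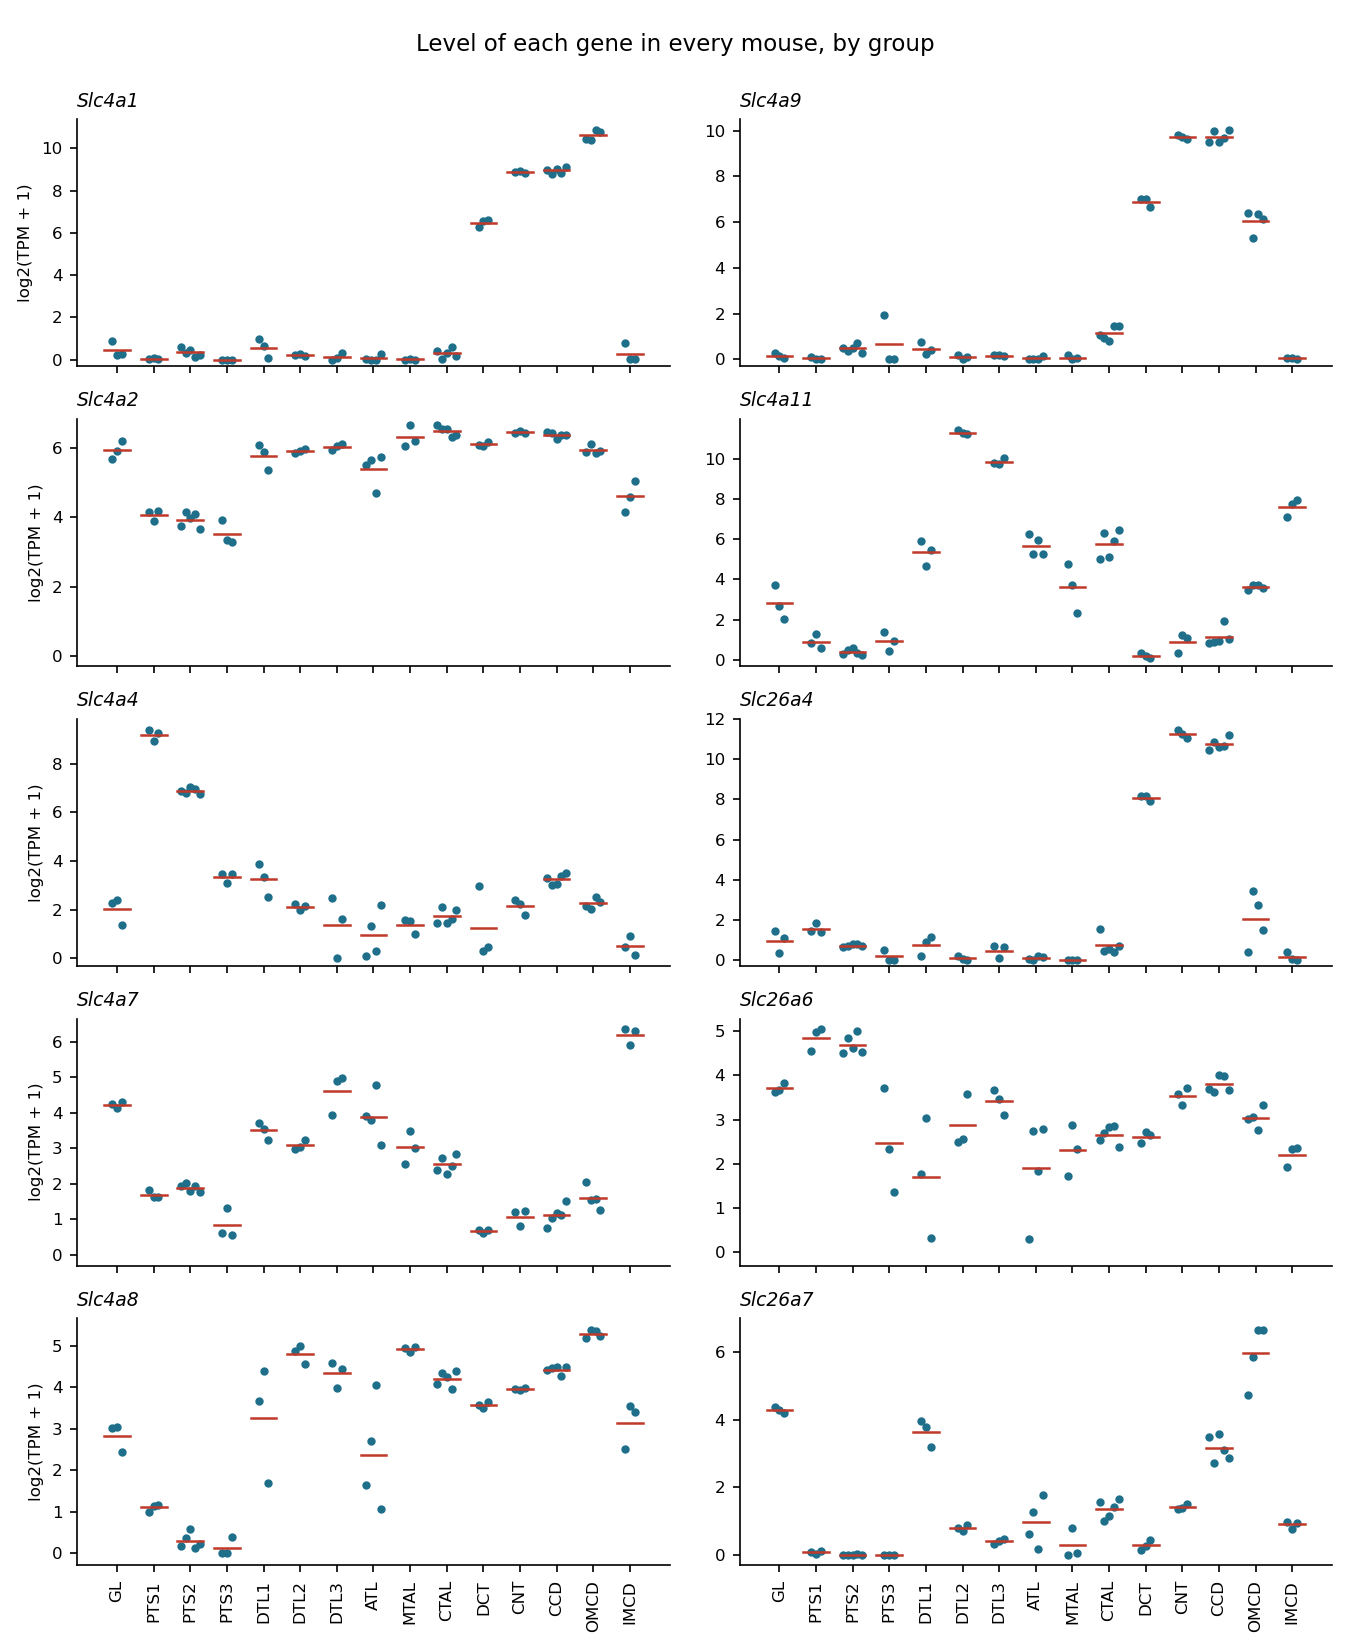
Level of each of the 10 genes as log2(TPM + 1) in every mouse, by group in nephron order. Each point is 1 mouse and each red line is the mean of the points, and the vertical axis differs between panels. Slc4a1, Slc4a9 and Slc26a4 are low outside DCT, CNT, CCD and OMCD, whereas Slc4a2 is above 10 TPM on average in every group.

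**Figure D2:**
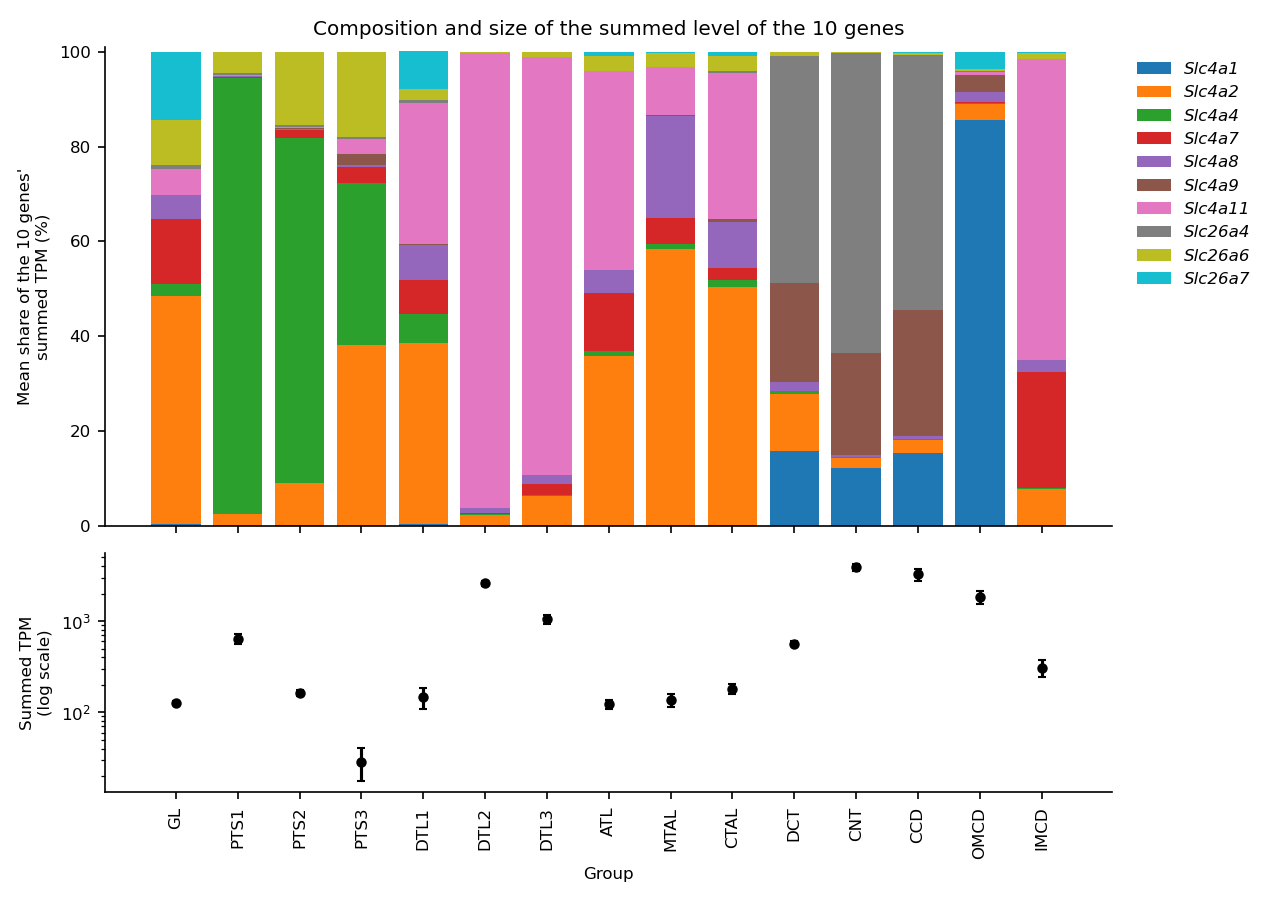
Top, mean share over mice of each gene in the summed TPM of the 10 genes, as stacked bars in percent. Bottom, the summed TPM itself on a log scale, with points for the mean over mice and bars for 1 SD. The leading gene changes from Slc4a4 in PTS1 to Slc4a11 in DTL2, Slc26a4 in CNT and Slc4a1 in OMCD.

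Slc4a1 encodes AE1, the chloride-bicarbonate exchanger on the blood side of type A intercalated cells and also the abundant anion exchanger of red cells. It was found in 4 groups. Its level in DCT was 76.5, 92.7 and 95.8 TPM, in CNT 464, 489 and 452 TPM, and in CCD 497, 445, 520, 459 and 558 TPM. In OMCD the 4 mice were at 1388, 1334, 1836 and 1772 TPM. No mouse of the other 11 groups reached 1 TPM. OMCD thus stood above CCD with no overlap, by 1.66 ± 0.15 log2 units (SE, adjusted p = 1.11e-11), a 3.19-fold difference in mean level, while the CNT and CCD mice overlapped and differed by -0.08 ± 0.16 (adjusted p = 1). Slc4a1 was 1 of the genes called highest in OMCD by the intersection-union test (adjusted p = 9.19e-10). The test asks whether a gene is above each other group, and a call also needs a fitted margin of at least 1 log2 unit over the next group. With a pseudocount of 0.1 it was not called (adjusted p = 0.353). That test called 0.148% of all genes for OMCD. Red cell genes were also examined. The 7 erythroid genes examined summed to 0.24 to 1.51 TPM in OMCD, 0 to 0.8 TPM in CCD and 0.085 to 0.315 TPM in CNT, with a mean under 1 TPM for each of the 7. They summed to 197 to 556 TPM in GL, where Slc4a1 was at 0.15 to 0.85 TPM. The part of red cells in the Slc4a1 values was not tested.

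Slc26a7 encodes a chloride carrier of the blood-side membrane of outer medullary intercalated cells. It was also highest in OMCD, at 25.2, 56.4, 99.3 and 98.4 TPM, with mouse 1 lowest. CCD mice were at 5.65 to 10.9 TPM with a median of 7.68 TPM, CNT mice at 1.59, 1.62 and 1.88 TPM, and IMCD mice at 0.967, 0.727 and 0.953 TPM. None of these groups overlapped with OMCD. The level was 2.80 ± 0.26 log2 units higher in OMCD than in CCD (adjusted p = 2.22e-11) and 1.72 ± 0.28 higher in CCD than in CNT (adjusted p = 0.000101). It too was called highest in OMCD, by a margin of 1.68 ± 0.30 over the next group, GL (adjusted p = 0.000611, and 0.754 with a pseudocount of 0.1).

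Outside the collecting duct, Slc26a7 was found in GL at 19.6, 18.4 and 17.4 TPM and in DTL1 at 14.4, 12.7 and 8.2 TPM, with DTL2 at 0.645 to 0.853 TPM and no mouse of the 3 proximal groups above 0.1 TPM. DTL1 exceeded DTL2 by 2.93 ± 0.32 log2 units (adjusted p = 7.01e-10). The 5 endothelial genes moved with it in part. They summed to 1177 to 1501 TPM in GL and 2225 to 3170 TPM in DTL1, but also to 858 to 1650 TPM in DTL2. They summed to 314 to 423 TPM in OMCD and 102 to 173 TPM in CCD, so they too were higher in OMCD without overlap. Pecam1, which encodes an endothelial adhesion molecule, was at 282 TPM in GL, 131 TPM in DTL1 and 79.1 TPM in DTL2. GL and DTL1 were also the groups with the most odorant and vomeronasal receptor genes, and the part of either in the Slc26a7 values was not tested.

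Slc26a4 encodes pendrin, the luminal chloride-bicarbonate exchanger of type B intercalated cells. Its 3 CNT mice were at 2816, 2432 and 2176 TPM and its 5 CCD mice at 1430, 1886, 1573, 1608 and 2350 TPM, so the ranges overlapped and the difference of 0.50 ± 0.33 log2 units was not called (adjusted p = 1). DCT mice were at 283, 292 and 239 TPM. In OMCD the mice were at 0.33, 9.69, 5.76 and 1.82 TPM, all far below every CCD mouse. The mean was 402-fold lower in OMCD than in CCD (670-fold without OMCD mouse 2), a difference of 8.92 ± 0.31 log2 units (adjusted p = 2.37e-26). Elsewhere no mouse exceeded 2.59 TPM, the value of PTS1 mouse 2, and the 3 MTAL mice were listed at 0.

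Slc4a9 encodes AE4, an anion exchanger of the blood-side membrane of type B intercalated cells. CNT mice were at 890, 836 and 785 TPM and CCD mice at 733, 1000, 730, 831 and 1032 TPM, with CNT inside the CCD range (CNT minus CCD, -0.03 ± 0.21 log2 units, adjusted p = 1). OMCD mice were at 82.2, 38.4, 80 and 69.3 TPM, lower than CCD by 3.70 ± 0.20 log2 units (adjusted p = 2.62e-19) and 12.8-fold in mean level. Every OMCD mouse held Slc4a9 at 38.4 TPM or more, where Slc26a4 was at 9.69 TPM or less. DCT was at 119 ± 15.1 TPM (n = 3) and CTAL mice at 0.75 to 1.75 TPM. No other group had a mean of 1 TPM, although 1 PTS3 mouse was at 2.88 TPM with the other 2 at 0.

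The balance of these genes was tested within each mouse as the log2 ratio of (TPM + 1) to Slc4a1, in 6 exact permutation tests, each of both sides, adjusted together. The ratio of Slc26a4 to Slc4a1 was 1.81 ± 0.26 in CCD (SD, n = 5) and -8.77 ± 1.40 in OMCD (n = 4), and that of Slc4a9 was 0.79 ± 0.27 and -4.58 ± 0.42. Both differed without overlap (exact permutation p = 0.0159 each, the smallest that 5 against 4 mice can give, adjusted p = 0.0476). Between CNT and CCD, the Slc26a4 ratio was 2.39 ± 0.18 (n = 3) and 1.81 ± 0.26 (n = 5). Every CNT mouse lay above every CCD mouse, with an exact permutation p of 0.0357, the smallest that 3 against 5 mice can give, and an adjusted p of 0.0536 that missed the threshold. The Slc4a9 ratio was 0.84 ± 0.09 in CNT and 0.79 ± 0.27 in CCD (exact permutation p = 0.893). For Slc26a7 the ratio was -7.44 ± 0.13 in CNT, -5.80 ± 0.36 in CCD and -4.66 ± 0.74 in OMCD. Neither step passed after adjustment (exact permutation, adjusted p = 0.0536 and 0.0762). In the first, every CNT mouse lay below every CCD mouse, and the exact permutation p of 0.0357 was again the smallest possible. In the second the ranges overlapped through OMCD mouse 1.

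**Figure D3:**
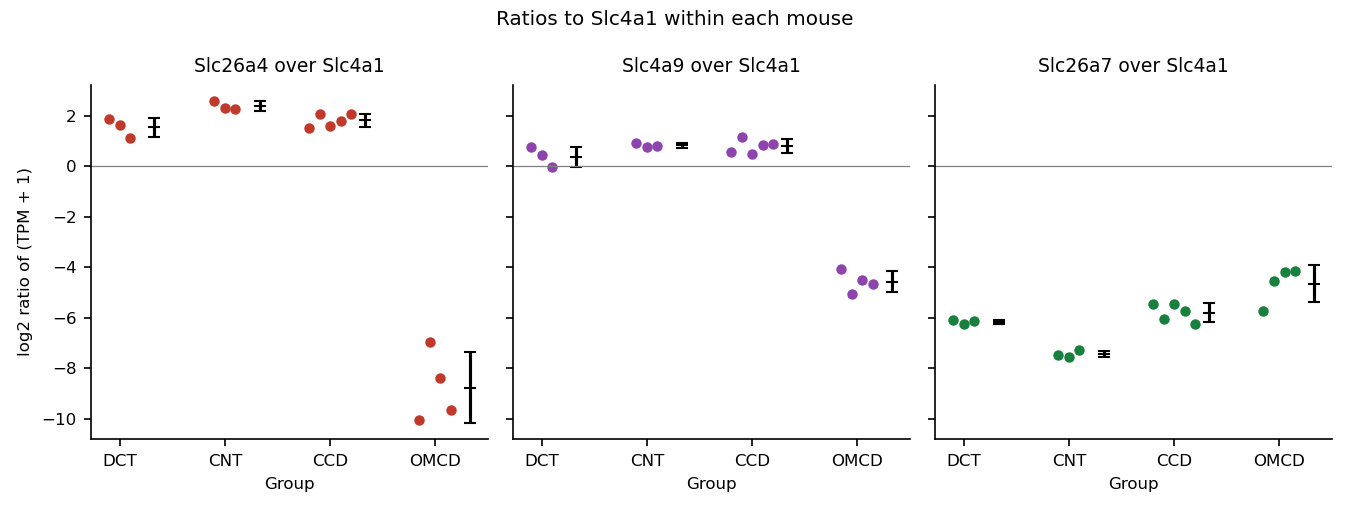
Log2 ratio of (TPM + 1) of Slc26a4, Slc4a9 and Slc26a7 to Slc4a1 in each mouse of DCT, CNT, CCD and OMCD. Coloured points are mice, and black marks give the mean ± SD. The first pair of ratios is positive on average in CCD (1.81 and 0.79) and negative in OMCD (-8.77 and -4.58).

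Genes known from intercalated cells gave the context for these 4 members. Between CCD and OMCD, 12.1% of all genes were called. Of 3 type B genes (Insrr, an alkali-sensing receptor, Hmx2, a transcription factor, and Oxgr1, a receptor for oxoglutarate), 3 were lower in OMCD than in CCD, with a median difference of 3.16 log2 units against -0.30 for all genes. Hmx2 was at 313 TPM in CCD and 1.86 TPM in OMCD. Of 4 type A genes, Aqp6 (an intracellular water channel homologue, 148 TPM in CCD and 666 TPM in OMCD) and Adgrf5 (an adhesion receptor, 183 and 398 TPM) were higher in OMCD. Adgrf5 is also found in endothelium and was at 231 TPM in GL. Its difference was 1.11 ± 0.36 log2 units, and 4 of the 5 endothelial genes were also called higher in OMCD than in CCD, among them Pecam1 by 1.25 and Flt1 by 1.43. Their part in it was not tested. The other 2 were not called: Kit was at 318 TPM in CCD and 257 TPM in OMCD (CCD minus OMCD, 0.36 ± 0.31, adjusted p = 0.402) and Dmrt2 at 89.5 and 148 TPM (-0.71 ± 0.18, adjusted p = 0.00319, with a difference under 1). None of the 5 genes shared by both types (0 of 5) was called between CCD and OMCD. Foxi1, the transcription factor of intercalated cells, was at 777 TPM in CNT, 676 TPM in CCD and 407 TPM in OMCD.

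DCT held Slc4a1, Slc4a9 and Slc26a4 at lower levels than CNT, and the 3 differences were called where 5.22% of all genes were (2.42 ± 0.18, 2.88 ± 0.24 and 3.27 ± 0.37 log2 units higher in CNT, with adjusted p-values of 3.83e-14, 5.25e-13 and 3.33e-09). The mean in DCT was 18.9% of the CNT mean for Slc4a1, 14.2% for Slc4a9 and 11% for Slc26a4. The 5 shared intercalated genes were at 15.4% (Foxi1) to 22.4% (Atp6v1c2, a proton pump subunit) of their CNT means. Principal cell genes spread more widely, from 0.231% for Fxyd4 (a sodium pump regulator) and 1.92% for Aqp2 to 36.2% for Scnn1g (a subunit of the sodium channel). How much of the DCT level comes from cells of the adjoining segment was not tested.

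The proximal tubule was led by Slc4a4, which encodes NBCe1, the sodium bicarbonate cotransporter through which proximal cells return bicarbonate to the blood. PTS1 mice were at 666, 494 and 611 TPM, PTS2 mice at 117, 111, 131, 123 and 108 TPM, and PTS3 mice at 10.2, 7.48 and 9.93 TPM, so the 3 proximal groups did not overlap. The level was 2.31 ± 0.40 log2 units higher in PTS1 than in PTS2 (adjusted p = 1.05e-05) and 3.57 ± 0.40 higher in PTS2 than in PTS3 (adjusted p = 3.03e-09). From PTS1 to PTS3 the mean was 64.1-fold lower. Slc4a4 was called highest in PTS1 (adjusted p = 9.22e-05, and 0.271 with a pseudocount of 0.1), as were 0.544% of all genes. Every other mouse was at 13.8 TPM or less. Past PTS3 the highest mean was 9.21 TPM in DTL1 (13.8, 9.1 and 4.72 TPM), followed by 8.6 ± 1.4 TPM in CCD (n = 5). Akr1c18, a mark of PTS3 (956 TPM), was at 195 TPM in DTL1, and its part in the DTL1 value was not tested. The CCD mice lay above those of CNT and OMCD without overlap. The differences of 1.11 ± 0.40 and 0.99 ± 0.37 log2 units were not called (adjusted p = 0.236, and 0.0374 with a difference under 1). The second passed after median ratio rescaling (1.03), with the replicate block (adjusted p = 0.0199) and under quantile normalization (1.31, adjusted p = 0.00175), and without CCD mouse 2 (1.05), CCD mouse 3 (1.04) or OMCD mouse 3 (1.09). The 3 proximal marks Slc34a1, Lrp2 and Kap summed to 99.4 to 485 TPM in CCD, 8.43 to 131 TPM in CNT and 1.33 to 12.4 TPM in OMCD. Kap was called higher in CCD than in CNT and OMCD, and Slc34a1 than in OMCD, while Lrp2 had a mean under 1 TPM in each. Their part in the CCD values of Slc4a4 was not tested.

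Slc26a6 encodes a luminal exchanger of chloride for formate, oxalate and bicarbonate that is known from the proximal brush border. It was at 22.3, 30.6 and 32.1 TPM in PTS1 and 21.6 to 31.1 TPM in PTS2 with a median of 23.5 TPM, and these ranges overlapped. PTS3 mice were at 12.1, 4.03 and 1.59 TPM, all below PTS2, a difference of 2.46 ± 0.40 log2 units (adjusted p = 9.16e-06). Slc4a4 therefore differed at both proximal boundaries and Slc26a6 at 1 of them. Whether the 2 genes differ from each other in this was not tested. CCD came next among the 15 groups, at 13 ± 1.84 TPM (n = 5), and the lowest group mean was 3.29 TPM in DTL1 (2.44, 7.18 and 0.25 TPM). DTL3 mice were at 11.8, 10 and 7.63 TPM and ATL mice at 0.23, 5.66, 2.59 and 5.89 TPM, with no overlap. The difference of 1.44 ± 0.42 log2 units (adjusted p = 0.00719) was not called without ATL mouse 2, at 0.23 TPM (0.90, adjusted p = 0.0777), with ATL mice 4 and 6 alone (1.04, adjusted p = 0.0516), with only the 2 groups in the fit (adjusted p = 0.296) or with a pseudocount of 5 (0.81).

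Slc4a11 encodes a family member that is known to carry protons, ammonia or water rather than bicarbonate. Its mean in DTL2, 2514 TPM, was the highest group mean of the 10 genes. DTL2 mice were at 2718, 2432 and 2393 TPM and DTL3 mice at 885, 849 and 1051 TPM. ATL mice were at 76.6, 36.8, 60.1 and 37.3 TPM and DTL1 mice, of the short loops, at 59.9, 24.3 and 43.6 TPM. The long-loop descending limb thus lay above the other thin limbs with no overlap. DTL2 exceeded DTL1 by 5.99 ± 0.41 log2 units (adjusted p = 1.59e-15), 59-fold in mean level, and DTL3 exceeded ATL by 4.18 ± 0.39 (adjusted p = 5.97e-12), 17.6-fold. DTL2 exceeded DTL3 by 1.44 ± 0.41 (adjusted p = 0.00989), a 2.71-fold difference in mean level that was not called under quantile normalization (adjusted p = 0.107) or with a pseudocount of 0.1 (adjusted p = 0.0541), and the margin did not pass the test for highest in DTL2 (adjusted p = 0.31). Aqp1, the constitutive water channel of the descending limb, was at 6582 TPM in DTL2 and 11647 TPM in DTL3, the reverse order. That margin, 0.84 ± 0.51 log2 units, did not pass the test for highest in DTL3.

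A second territory of Slc4a11 was the inner medullary collecting duct, where mice were at 135, 217 and 242 TPM against 10 to 12.4 TPM in OMCD (3.95 ± 0.39 log2 units, adjusted p = 1.71e-11, 17.4-fold). Another was CTAL, at 31.5, 77.4, 33.1, 59 and 86.8 TPM. MTAL mice were lower and spread widely, at 25.7, 12.2 and 4.04 TPM (2.19 ± 0.37 log2 units, adjusted p = 3.65e-05). DCT mice were all under 0.3 TPM. The change between CTAL and DCT, 5.54 ± 0.37 log2 units (adjusted p = 2.70e-16), was the largest among the members that were lower on the DCT side.

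Slc4a7 encodes NBCn1, an electroneutral sodium bicarbonate cotransporter that brings bicarbonate into cells. IMCD mice were at 81.1, 59.2 and 77.1 TPM, DTL3 mice at 14.2, 28.9 and 30.2 TPM, GL mice at 17.9, 16.5 and 18.6 TPM, and ATL mice at 13.9, 13, 26.6 and 7.48 TPM. IMCD was above all of these. It was called highest in IMCD by a margin of 1.58 ± 0.28 log2 units over DTL3 (adjusted p = 0.000123), a test that called 0.527% of all genes for IMCD. From OMCD to IMCD the mean was 34.5-fold higher (4.58 ± 0.26 log2 units, adjusted p = 3.10e-19), with OMCD mice at 1.39 to 3.12 TPM. NBCn1 is known from the thick ascending limb, where the transcript was at 7.44 ± 2.72 TPM in MTAL (n = 3) and 4.9 ± 0.955 TPM in CTAL (n = 5). DCT mice were at 0.53 to 0.63 TPM, the lowest group mean.

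Slc4a8 encodes NDCBE, which exchanges chloride for sodium and bicarbonate and is known from the collecting duct. Its highest group was OMCD, at 35.2, 40.8, 39.5 and 36.5 TPM, with no overlap with MTAL next at 29.5, 27.8 and 30.2 TPM. The margin of 0.37 ± 0.39 log2 units did not pass the test (adjusted p = 1). CCD mice were at 18.1 to 21.4 TPM with a median of 21 TPM, and CNT mice at 14.2 to 14.8 TPM. Among thin limbs DTL2 was at 28.1, 30.9 and 22.7 TPM and ATL at 2.13, 5.46, 15.5 and 1.1 TPM. PTS2 and PTS3 mice were all at or under 0.5 TPM. Some of its calls were lost under alternatives. Those of DTL1 against DTL2 and DTL3 against ATL were lost when only the groups compared entered the fit, with the filter applied to those groups (adjusted p = 0.0956 and 0.105), and the first also without DTL1 mouse 5 (-0.77, adjusted p = 0.102).

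Slc4a2 encodes AE2, a chloride-bicarbonate exchanger found in most cells. It was the only member at 1 TPM or more in every mouse of all 15 groups. Group means ranged from 10.7 ± 2.99 TPM in PTS3 (n = 3) to 89.7 ± 8.6 TPM in CTAL (n = 5), an 8.38-fold range. The order from the top was CTAL, CNT, CCD, MTAL and DCT, and each group's mice overlapped with those of the next group down the whole order. The 3 proximal groups were lowest, at 8.73 to 17.2 TPM over their mice. IMCD was next, at 17, 23.2 and 32.3 TPM, lower than OMCD by 1.36 ± 0.19 log2 units (adjusted p = 1.01e-07). Exons of Slc4a2 overlap those of Fastk on the opposite strand in the GENCODE annotation. Some reads of Fastk, at 81.3 to 299 TPM in group means, could thus be counted for Slc4a2. Fastk was highest in the same groups that head the Slc4a2 order: MTAL (299 TPM), CCD (263), CTAL (262), CNT (259) and DCT (210). It was lowest in IMCD, at 81.3 TPM, but at 111 to 132 TPM in the 3 proximal groups, where Slc4a2 was lowest. The part of Fastk in the Slc4a2 values was not tested.

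Sequences before the start sites of 6 members (Slc4a2, Slc4a4, Slc4a7, Slc4a8, Slc26a4 and Slc26a6) were taken from RefSeq for mouse build GRCm38.p6, in 8 windows matched by symbol. The 250 bases before 4 of these starts are printed to set the member found in every group beside one with its highest levels in the distal nephron, and the 2 starts of Slc4a4 beside each other. Capitals mark CpG dinucleotides, and each sequence reads 5′ to 3′ on the gene's strand.
Slc4a2, chr5:24424982-24425231, plus strand: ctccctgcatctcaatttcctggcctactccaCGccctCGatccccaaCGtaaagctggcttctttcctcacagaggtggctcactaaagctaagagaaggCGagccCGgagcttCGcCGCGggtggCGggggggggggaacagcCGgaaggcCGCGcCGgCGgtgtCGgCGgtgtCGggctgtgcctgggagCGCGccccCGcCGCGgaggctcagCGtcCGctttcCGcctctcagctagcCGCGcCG
Slc26a4, chr12:31559985-31560234, minus strand: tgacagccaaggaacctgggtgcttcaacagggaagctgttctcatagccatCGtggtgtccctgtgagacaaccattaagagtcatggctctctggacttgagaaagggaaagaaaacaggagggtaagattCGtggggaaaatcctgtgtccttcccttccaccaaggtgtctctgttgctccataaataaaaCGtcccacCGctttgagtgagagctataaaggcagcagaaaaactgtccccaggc
Slc4a4 upstream start, chr5:88887010-88887259, plus strand: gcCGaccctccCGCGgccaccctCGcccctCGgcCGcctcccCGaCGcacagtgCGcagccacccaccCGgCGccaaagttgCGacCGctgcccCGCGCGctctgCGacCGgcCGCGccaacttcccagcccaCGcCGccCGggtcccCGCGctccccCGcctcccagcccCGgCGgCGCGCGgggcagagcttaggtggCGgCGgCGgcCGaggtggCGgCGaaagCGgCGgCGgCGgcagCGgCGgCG
Slc4a4 downstream start, chr5:89027716-89027965, plus strand: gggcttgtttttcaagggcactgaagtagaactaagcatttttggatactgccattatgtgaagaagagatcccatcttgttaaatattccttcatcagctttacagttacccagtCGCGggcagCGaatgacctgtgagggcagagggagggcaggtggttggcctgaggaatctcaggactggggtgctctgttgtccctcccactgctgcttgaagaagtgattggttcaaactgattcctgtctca

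The Slc4a2 sequence held 28 CpG dinucleotides with a GC content of 69.2%, and the second Slc4a2 start 16. The Slc26a4 sequence held 4 with a GC content of 49.6%. Over all 32851 windows the median was 6 CpG and 52.4% GC, and 7.61% of windows held at least as many CpG as the first Slc4a2 window against 62.2% for Slc26a4. The 2 starts of Slc4a4 differed, with 44 CpG upstream (0.539% of windows held as many) and 3 downstream (71%). The form of NBCe1 known from the proximal tubule is made from a start inside the gene and other forms from the upstream start. The deposited TPM are per gene and do not separate them. Across the other windows the count was 2 for Slc4a7, 16 for Slc4a8 and 9 for Slc26a6. Windows of 250 bases before to 50 after the start were also searched on both strands for TGTTTAC (a forkhead core), TTAATNATT (HNF1, N any base) and CAAAGTCCA (HNF4), which do not overlap one another. None of the 8 member windows held any of them (0 of 8), compared with 3.65%, 1.47% and 0.475% of all windows.

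Between neighbouring groups, 54 of the 140 member comparisons were called at an adjusted p under 0.05 and a log2 difference of at least 1, which is 38.6%, compared with 17.5% of all gene comparisons. Within the proximal tubule, 1 member (Slc4a4) was higher in PTS1 than in PTS2, where 9.57% of all genes were called, and 3 were higher in PTS2 than in PTS3, where 4.70% were. The 3 were Slc4a4, Slc26a6 and Slc4a7, the last at 2.72 ± 0.274 TPM in PTS2 and 0.845 ± 0.585 TPM in PTS3, a call (1.05) lost without PTS3 mouse 1 (0.94) or mouse 3 (0.92), with the replicate block (0.97), under quantile normalization (0.98) and with a pseudocount of 5 (0.41). No member was called lower in PTS1 than in PTS2 or in PTS2 than in PTS3. For PTS1 against PTS2, quantile normalization gave 1 higher and 2 lower, and median ratio rescaling 3 higher and 0 lower. Of all 33793 genes, 3411 and 4496 were then called, against 3233 without either.

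Entry into the thin limbs moved more members, but also more genes of every kind. Between PTS3 and DTL1, 5 members were higher in DTL1 and 0 in PTS3, where 65.5% of all genes were called with a median difference of -1.33 log2 units. The 5 were Slc4a2, Slc4a7, Slc4a8, Slc4a11 and Slc26a7. Rescaling by median ratio gave 2 higher in PTS3 and 5 in DTL1, and quantile normalization gave 2 and 4. Of all 33793 genes, 18629 and 9115 were then called at this boundary, against 22146 without either. Between PTS3 and DTL2, 4 were higher in DTL2 and 1 (Slc4a4) in PTS3, against 40.0% of all genes. The Slc4a7 differences at these 2 boundaries (PTS3 minus the limb), -2.63 and -2.19 log2 units, were -0.31 and -0.82 under quantile normalization and were not called (adjusted p = 0.529 and 0.0667).

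Within the thin limbs, 5 members were called between DTL1 and DTL2 (28.2% of all genes). Slc4a11 and Slc26a7 are given above, Slc4a8 and Slc26a6 were higher in DTL2, and Slc4a4 was higher in DTL1 than in DTL2 (13.8, 9.1 and 4.72 against 3.7, 2.97 and 3.41 TPM, adjusted p = 0.0246). The Slc4a4 call was lost without DTL1 mouse 1 (0.88), DTL1 mouse 3 (1.16, adjusted p = 0.0563) or DTL2 mouse 2 (1.07, adjusted p = 0.0805). It was also lost under quantile normalization (0.46, adjusted p = 0.438), with a pseudocount of 0.1 (adjusted p = 0.155) or 5 (0.73), and with only the 2 groups in the fit (adjusted p = 0.0756). The Slc26a6 call (-1.18, DTL1 minus DTL2) was lost without DTL1 mouse 5 (-0.52) or DTL2 mouse 3 (-0.82), with the replicate block (-1.02, adjusted p = 0.0568), with only the 2 groups in the fit (adjusted p = 0.209) and with a pseudocount of 5 (-0.57). Without DTL2 mouse 2, Slc4a4 also lost its call between PTS3 and DTL2 (1.27, then 1.14 with an adjusted p of 0.0548), as it did with a pseudocount of 0.1 (1.53, adjusted p = 0.0939) or 5 (0.76). Between DTL2 and DTL3, Slc4a11 was higher in DTL2 and Slc4a7 in DTL3 (by 1.57 ± 0.28 log2 units, adjusted p = 2.71e-05), where 9.58% of all genes were called. The 7 principal cell genes examined summed to 15 to 22.5 TPM in DTL2 and 1495 to 1883 TPM in DTL3. Among them Fxyd4 was at 14.3 and 1720 TPM, while Aqp3, Scnn1g and Hsd11b2 had means under 1 TPM in DTL3. Their part in the Slc4a7 difference was not tested. Between DTL3 and ATL, 14.6% of all genes were called, and Slc4a8, Slc4a11 and Slc26a6 were higher in DTL3. The calls over all genes depended on the ATL mice. With ATL mice 2 and 3 alone, 9497 genes were higher in DTL3 and 964 in ATL. With ATL mice 4 and 6 alone, the numbers were 3703 and 4203. Between ATL and MTAL (28.1%), Slc4a11 was higher in ATL by 2.12 ± 0.39 and Slc4a8 in MTAL by 2.55 ± 0.39 log2 units. Quantile normalization changed that split to 1 and 4, with 5873 of 33793 genes called against 9487 without it.

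Along the thick limb and into the distal tubule, 3 members were higher in CTAL than in MTAL (3.15% of all genes): Slc4a11, Slc4a9 and Slc26a7. The last 2 stood at 1.24 ± 0.464 and 1.6 ± 0.474 TPM in CTAL (n = 5). Their calls rested on differences (MTAL minus CTAL) of -1.06 each and were lost without CTAL mouse 5 (-0.99 each), the Slc4a9 call also without CTAL mouse 4 (-0.98), and the Slc26a7 call without MTAL mouse 1 (-0.92) or mouse 3 (-0.95). With a pseudocount of 5 both calls were lost (-0.30 for Slc4a9 and -0.32 for Slc26a7), the Slc4a9 call also with the replicate block (adjusted p = 0.00141, with a difference under 1 before rounding) and the Slc26a7 call under quantile normalization (-0.96, adjusted p = 0.0732). Between CTAL and DCT, where 4.35% of all genes were called, Slc4a1, Slc4a9 and Slc26a4 were higher in DCT by 6.15 ± 0.16, 5.70 ± 0.21 and 7.28 ± 0.33 log2 units. Slc4a11, Slc4a7 and Slc26a7 were higher in CTAL, the last by 1.07 ± 0.28, a call that was lost without CTAL mouse 5 or DCT mouse 1, under quantile normalization (0.89, adjusted p = 0.104) and with a pseudocount of 5 (0.33). The Slc4a7 call (1.88) was lost with a pseudocount of 5 (0.82). Higher in CNT than in DCT, where 5.22% of all genes were called, were 4 members: Slc4a1, Slc4a9, Slc26a4 and Slc26a7, and Slc26a7 was at 1.7 ± 0.162 TPM in CNT against 0.228 ± 0.128 TPM in DCT. This call (DCT minus CNT, -1.15, adjusted p = 0.0108) was lost under quantile normalization (-0.90, adjusted p = 0.176) and with a pseudocount of 5 (-0.36).

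CNT and CCD differed little: 1 member (Slc26a7) was called, and 1.12% of all genes. That call was lost with a pseudocount of 5 (-0.95, CNT minus CCD). Between CCD and OMCD (12.1%), Slc4a9 and Slc26a4 were higher in CCD, and Slc4a1, Slc4a11 and Slc26a7 in OMCD. Under quantile normalization this split was 4 and 3, and after median ratio rescaling 3 and 3. Of all 33793 genes, 1593 and 3066 were then called, against 4095 without either. The last boundary moved the most members. Between OMCD and IMCD, where 18.6% of all genes were called, 7 were higher in OMCD (Slc4a1, Slc4a2, Slc4a4, Slc4a8, Slc4a9, Slc26a4 and Slc26a7) and 2 in IMCD (Slc4a7 and Slc4a11). The Slc4a4 (1.87) and Slc26a4 (1.73) calls were lost with a pseudocount of 5 (0.71 and 0.73). The 5 shared intercalated genes summed to 2033 to 2657 TPM in OMCD and 0.957 to 5.71 TPM in IMCD, the 4 type A genes to 1203 to 1755 and 3.54 to 14.4 TPM, and the 5 endothelial genes to 314 to 423 and 12.7 to 162 TPM. Their part in the differences was not tested. Slc4a1 differed most, by 10.40 ± 0.17 log2 units (adjusted p = 2.46e-39). The median over the 10 members was 1.80 log2 units, against 0.32 over all genes.

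**Figure D4:**
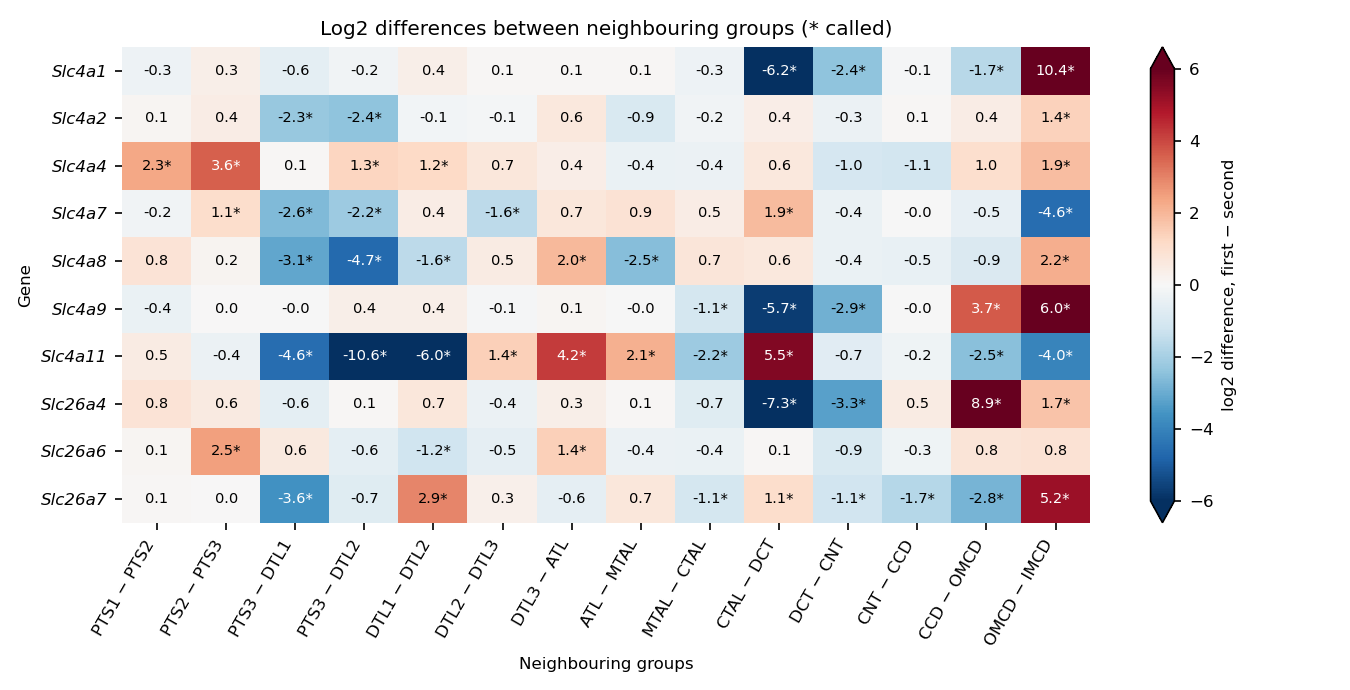
Log2 difference on the log2(TPM + 1) scale between neighbouring groups for each gene, as the first group minus the second (red, higher in the first, blue, higher in the second). Colours end at 6 log2 units, and an asterisk marks the 54 calls at an adjusted p under 0.05 and a difference of at least 1. The column for OMCD and IMCD holds 9 calls, and that for CNT and CCD holds 1.

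Of the other 11 genes of the 2 families in the list, 10 passed the filter. Slc26a1, a sulfate-oxalate exchanger, was at 183 TPM in PTS1, 93.3 TPM in PTS2 and 3.75 TPM in PTS3, and was called between PTS2 and PTS3 (4.52 ± 0.34 log2 units, adjusted p = 6.65e-14). Slc4a5, a sodium bicarbonate cotransporter gene, was at 35.3 TPM in OMCD, 5.88 TPM in CCD and 0.04 TPM in IMCD. It was called higher in OMCD than in CCD by 2.36 ± 0.26 log2 units (adjusted p = 2.96e-09), the only 1 of the 10 called at that boundary, where 12.1% of all genes were. Slc4a3, the AE3 anion exchanger gene, was at 33.7 TPM in DCT and 11.6 TPM in CTAL (1.51 ± 0.23, adjusted p = 2.44e-06). Between OMCD and IMCD, where 18.6% of all genes were called, 3 of the 10 were higher in OMCD and 0 in IMCD.

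The list of partners held 17 genes of bicarbonate transport: proton secretors, carbonic anhydrases, proton pump subunits and regulators. Between PTS1 and PTS2 (9.57% of all genes called), 5 of 17 were higher in PTS1 and 2 in PTS2. Car2, the cytosolic carbonic anhydrase, was at 1280 TPM in PTS1 and 49.3 TPM in PTS2 (4.69 ± 0.16, adjusted p = 1.21e-26), while Car4, the membrane-anchored enzyme, was at 108 and 471 TPM. Between PTS2 and PTS3 (4.70%), 7 were higher in PTS2 and 0 in PTS3, with a median difference of 0.67 log2 units against 0.00 over all genes. Slc9a3, the luminal sodium-proton exchanger, was at 14.9 TPM in PTS2 and 0.015 TPM in PTS3, Car14 at 70.6 TPM and 0, and Slc4a4 at 118 and 9.21 TPM beside them. Between DCT and CNT (5.22%), 8 were higher in CNT and 1 (Car4) in DCT, among them Car12 (281 and 2298 TPM) and Car2 (538 and 3188 TPM). Car15 was at 1124 TPM in CCD and 52.8 TPM in OMCD (4.63 ± 0.48, adjusted p = 4.27e-10). In DTL2, beside the high Slc4a11, Car14 was at 2044 TPM and Slc9a3 at 295 TPM, against 0.393 and 1.39 TPM in DTL3.

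Likeness between genes was measured as Pearson's r of the 15 group means of log2(TPM + 1), a description over points that share scaling and cell mixture. Among genes reaching 10 TPM, the 2 nearest to Slc4a1 were Dmrt2 and Foxi1 (0.988 each), to Slc4a9 Insrr (0.990) and Hepacam2 (0.984), and to Slc26a4 Hmx2 and Kcne1 (0.977 each). Principal cell genes, named after their values were seen, lay close behind for the first pair of members, with Hsd11b2 at 0.987 and Scnn1g at 0.986 for Slc4a1, and with Scnn1b and Scnn1g among the 5 nearest to Slc4a9. Slc4a4 was nearest to Slc2a2 (0.957), the facilitative glucose carrier gene of the proximal tubule, and Ttr (0.955). Slc4a7 was nearest to S100a4 (0.907) and Dlgap1 (0.895), Slc4a11 to Pdcd5 (0.889) and Tert (0.866), Slc26a6 to Tpp1 (0.915) and Rfng (0.882), and Slc26a7 to Junos (0.919) and Oas2 (0.896). The broad members Slc4a2 and Slc4a8 had Pank4 (0.979) and Bace1 (0.967), and Ubl7 (0.942) and Eef1akmt2 (0.941). Among the members themselves r was 0.95 for Slc4a1 and Slc4a9, 0.94 for Slc4a9 and Slc26a4, 0.79 for Slc4a1 and Slc26a4, 0.89 for Slc4a2 and Slc4a8, 0.72 for Slc4a4 and Slc26a6, and 0.71 for Slc4a7 and Slc4a11. Slc26a7 had no member above 0.52, its value with Slc4a1.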

How the data were processed

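Transcript abundance was measured by RNA sequencing of small inputs in 93 samples. Per the labels' protocols, RNA was purified with Direct-zol kits and made into cDNA with SMARTer V4 and libraries with Nextera XT. The submitters' processing notes name STAR 2.5.4a and RSEM 1.3.0, without roles, and the genome build is not given in the sources used here. The authors deposited TPM, scaled to 1 common total per sample, so composition affects every value. The 3 single-cell samples were not analysed here, and 1 PTS2 column matched no title and was used as an unnumbered mouse.

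Pieces of 1 mouse number and segment were averaged, giving 53 mice as replicates. Levels are plain means of TPM. Tests used log2(TPM + 1) averaged over pieces, with limma 3.58.1 in R 4.3.3 (trend) over 33793 genes at 1 TPM or more in at least 3 mice, all 15 groups in 1 fit and Benjamini-Hochberg adjustment over genes. Differences on this scale understate the change of low genes. Ratios were tested by exact permutation (scipy 1.17.1). The limma step was also run on simulated data with independent normal noise, which do not hold the differences between libraries described above. The members and lists were chosen with earlier results of these data known. Named genes were the members, at most 4 called genes per list and comparison by largest difference, cell and segment markers, and per member the 2 genes of highest Pearson r among those with a group mean of at least 10 TPM, passing over Gm, Rik, mitochondrial, ribosomal protein and pseudogene names. Alternatives were other pseudocounts, filters, scalings, averaging and models, and leaving out each mouse or the groups with many low transcripts.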

Additional observations from a re-analysis of the deposited data

Results flagged for a closer look

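In groups of 4 or 5 mice, 39 combinations of member and group with a mean of at least 1 TPM were examined for a mouse standing apart from the rest, by the gap to its nearest neighbour over the whole range (Dixon's test at 95%). One stood apart, where chance flags about 1 in 20 groups. Slc4a11 was at 2.88 TPM in CCD mouse 4, against 0.77 to 1.07 TPM in the other 4 mice, with a gap of 0.855 of the range. The Slc4a11 difference between CCD and OMCD was called without this mouse as well as with it.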

How the results depend on the processing

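All 10 members differed among the 15 groups under every alternative in which this was tested, which leaves out the fits that did not hold all 15 groups. The 54 calls between neighbouring groups became 68 with a pseudocount of 0.1, 41 with a pseudocount of 5, 60 after median ratio rescaling, 57 after quantile normalization, 50 with only the 2 groups compared in the fit, and 51 to 56 when 1 mouse was left out. Calls over all genes moved with these settings too. Between OMCD and IMCD, 6284 of 33793 genes were called, against 11665 with a pseudocount of 0.1 and 2826 with a pseudocount of 5. That number was 5162 after median ratio rescaling and 4689 after quantile normalization. The mouse numbers were also fitted as a replicate block, with 53 calls. The series' design text counts 53 mice, as many as the mice here summed over segments, the unnumbered PTS2 mouse included. By that count a number is not 1 animal across segments, but how the design text counted mice is not given. The median correlation of deviations was 0.000 for both the 290 pairs of mice with the same number and the 968 with different numbers. Of these, 19 and 31 pairs were over 0.1, which is a larger share among pairs with the same number. Whether some animals gave more than 1 segment was not tested. Members called highest in 1 group numbered 4, with 1 (Slc4a7) at a pseudocount of 0.1, 5 at a pseudocount of 5 (Slc4a11 added) and 4 under each other alternative in which this was tested, which leaves out the fits of only 2 groups and those without GL and the thin limbs. In the 8 comparisons that involve neither GL nor a thin limb, 32 calls became 34 when those groups were left out of the fit. Of 58 called results, 49 kept their call without each mouse in turn. No called result changed direction under any alternative.

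Between CNT and CCD, the uncalled difference of Slc4a9 (-0.03) turned to 0.05 after median ratio rescaling and 0.03 with the replicate block, and ranged from -0.09 to 0.03 without 1 mouse (0.01 without CNT mouse 3, 0.02 without CCD mouse 2 and 0.03 without CCD mouse 5). That of Slc4a1 (-0.08) turned to 0.01 after median ratio rescaling. The uncalled CNT and CCD difference of Slc4a4 (-1.11) passed with only those groups in the fit (adjusted p = 0.0014) and without GL and the thin limbs (0.0089). The ratio of Slc4a9 to Slc4a1 between CNT and CCD was 0.05 and turned to -0.05 under quantile normalization, ranging from -0.03 to 0.14 without 1 mouse (-0.01 without CNT mouse 1 or CCD mouse 1). Between CCD and OMCD, the ratio differences without 1 mouse were 10.16 to 11.19 for Slc26a4, 5.20 to 5.54 for Slc4a9 and -1.50 to -0.97 for Slc26a7. With a mouse fewer the exact test allows larger p-values at best, and Slc26a4 and Slc4a9 passed only without OMCD mouse 1 (adjusted p = 0.0429, otherwise 0.0536 or 0.0857), as did Slc26a7 (exact permutation). Quantile normalization moved the median difference of all genes between PTS3 and DTL1 from -1.33 to -0.02. Protein sequences were not compared.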
